A study of Homo sapiens with 5 samples.

Results

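The antioxidant response genes examined here were 10 genes: NFE2L2, KEAP1, HMOX1, NQO1, GCLC, GCLM, TXNRD1, SRXN1, SLC7A11 and CAT. A methylation window of 1000 bases was taken as a member when the deposited annotation gave it one of these gene symbols, or when it overlapped one of the genes with 1500 bases added on either side. This gave 110 of the 288391 windows, and each of the 10 genes had at least 2. TXNRD1 held 41 windows, NFE2L2 18, KEAP1 15, HMOX1 9, SRXN1 8, NQO1 5, GCLC 5, GCLM 4, SLC7A11 3 and CAT 2. The symbol reached far in places, and 26 of the windows lay more than 1500 bases outside the gene whose symbol they carried. GCLC was not among the symbols of the table, so its position came from RefSeq.

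The windows came from reduced representation bisulfite sequencing (RRBS) of 201B7 (HPS0063), a human induced pluripotent stem cell (iPSC) line given as wild type in genotype. All conditions used this single line. The paper describes its methylation profiling as done in iPSCs engineered to carry a fluorescent methyl-CpG-binding domain (mCherry-MBD-nls). Its RRBS methods name only cells. The cells were exposed for 48 h to 0.1% DMSO as the vehicle control, to 1 nM etoposide (a topoisomerase II inhibitor), to 1 µM propyl gallate (a phenolic antioxidant), to 1 µM theophylline (a methylxanthine) or to 10 nM 5-aza-dc (5-aza-2′-deoxycytidine, an inhibitor of DNA methyltransferases). Each condition had 1 library, so no difference had a replicate check, and a condition and its library cannot be told apart. The comparison asked which chemicals altered DNA methylation relative to the vehicle control.

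NRF2, the protein made from NFE2L2, is the transcription factor that turns on antioxidant and detoxification genes. KEAP1 holds NRF2 in the cytoplasm and delivers it to ubiquitin-dependent degradation, and oxidants or electrophiles that modify KEAP1 let NRF2 accumulate. NRF2 then pairs with small MAF proteins and binds antioxidant response elements, which share the core letters TGACNNNGC. Promoters rich in CpG are usually unmethylated in pluripotent cells, while gene bodies and the DNA between genes are mostly methylated.

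The promoters of GCLM, TXNRD1, KEAP1 and CAT are printed to show how dense in CpG these promoters are, where their starts lie and where the core letters occur. They are RefSeq sequences of build GRCh38.p14, from 250 bases before to 50 after a start, read 5′ to 3′ along the gene's strand, with every CG in capitals. RefSeq sequences were matched for 8 of the 10 genes, with 11 starts in all, and those of HMOX1 and SLC7A11 are named only. The GCLM sequence is chr1:93909381-93909680 on the minus strand. The upstream TXNRD1 start is chr12:104215529-104215828 and its downstream start chr12:104286782-104287081, both on the plus strand. The downstream KEAP1 start is chr19:10502722-10503021 on the minus strand, and CAT is chr11:34438684-34438983 on the plus strand.
GCLM: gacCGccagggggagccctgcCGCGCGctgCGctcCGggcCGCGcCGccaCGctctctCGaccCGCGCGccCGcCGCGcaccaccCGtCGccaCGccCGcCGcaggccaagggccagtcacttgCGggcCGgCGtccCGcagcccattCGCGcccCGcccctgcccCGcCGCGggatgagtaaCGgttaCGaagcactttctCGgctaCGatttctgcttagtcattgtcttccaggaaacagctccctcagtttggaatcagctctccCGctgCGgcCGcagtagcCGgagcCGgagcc
TXNRD1, upstream start: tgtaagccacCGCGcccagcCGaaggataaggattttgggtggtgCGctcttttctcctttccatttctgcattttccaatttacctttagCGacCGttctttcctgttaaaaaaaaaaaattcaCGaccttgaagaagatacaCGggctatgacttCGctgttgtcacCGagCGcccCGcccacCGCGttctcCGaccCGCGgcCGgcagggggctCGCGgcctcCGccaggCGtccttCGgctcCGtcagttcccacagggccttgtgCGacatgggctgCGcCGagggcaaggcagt
TXNRD1, downstream start: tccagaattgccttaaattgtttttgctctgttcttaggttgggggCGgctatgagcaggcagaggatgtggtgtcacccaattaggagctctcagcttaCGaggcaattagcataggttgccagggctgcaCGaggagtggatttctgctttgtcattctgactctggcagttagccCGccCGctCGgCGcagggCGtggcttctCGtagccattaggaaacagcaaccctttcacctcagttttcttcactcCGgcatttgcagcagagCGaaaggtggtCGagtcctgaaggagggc
KEAP1, downstream start: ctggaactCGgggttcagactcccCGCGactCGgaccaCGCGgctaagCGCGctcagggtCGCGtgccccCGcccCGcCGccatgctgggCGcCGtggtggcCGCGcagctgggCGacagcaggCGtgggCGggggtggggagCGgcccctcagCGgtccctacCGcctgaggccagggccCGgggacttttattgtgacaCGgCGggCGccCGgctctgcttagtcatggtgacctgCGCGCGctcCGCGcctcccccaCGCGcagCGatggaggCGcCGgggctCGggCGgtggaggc
CAT: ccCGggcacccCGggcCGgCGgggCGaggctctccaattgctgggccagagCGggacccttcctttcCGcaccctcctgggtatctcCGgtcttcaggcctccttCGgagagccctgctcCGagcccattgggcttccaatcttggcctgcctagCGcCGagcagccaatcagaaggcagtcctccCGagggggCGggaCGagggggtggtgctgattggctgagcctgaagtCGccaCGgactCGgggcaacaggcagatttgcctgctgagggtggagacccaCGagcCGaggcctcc

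The members' promoters ranged from 12 CG at the downstream TXNRD1 start to 46 at SRXN1, beside a median of 14 over all 34789 promoters of the same length. GCLM had 41 CG, the 2 KEAP1 starts 36 and 40, the 2 NFE2L2 starts 35 and 39, GCLC 32, the upstream TXNRD1 start 27, CAT 20 and NQO1 14. RRBS reads fragments that the enzyme MspI cuts at CCGG, and these letters were in all 11 member promoters and in 63.1% of all promoters. TGACNNNGC, searched on both strands, was in 4 of the 11 member promoters and in 13.4% of all promoters. Each match is given with 6 bases on either side along the gene's strand, with the core in capitals, to show which cores hold a CpG that could be methylated.
GCLM, core on the opposite strand, 34 bases before the start: atttctGCTTAGTCAttgtct
TXNRD1, upstream start, core on the gene's strand, 99 bases before it: gggctaTGACTTCGCtgttgt
TXNRD1, upstream start, core on the opposite strand, 8 bases before it: ccttcgGCTCCGTCAgttccc
TXNRD1, downstream start, core on the opposite strand, 102 bases before it: atttctGCTTTGTCAttctga
KEAP1, downstream start, core on the gene's strand, 54 bases before it: ttattgTGACACGGCgggcgc
KEAP1, downstream start, core on the opposite strand, 31 bases before it: ggctctGCTTAGTCAtggtga

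Of these 6 cores, 3 held 1 CG each and 3 held none, so at the GCLM core and at the core of the downstream TXNRD1 start there is no CpG inside the letters themselves. A match is a run of letters only, and no binding was measured.

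The β-value is the percentage of CpG calls in a window that were methylated, and every β-value here comes from the calls before the authors' scaling of coverage. Over the whole table the libraries held 188844850 to 228919184 calls, with a mean β-value between 78.3% and 80.3%. In the 110 member windows the median was 554 to 666 calls per library, and between 1 and 2 windows per library had fewer than 30. The median width of the 95% Wilson interval of a member window was 3.92 to 4.64 percentage points. Intervals cover counting error only and treat each call as independent. Calls from one fragment are not independent, so the intervals can be too narrow and the exact-test p-values below too small. Of 8 pluripotency genes, 4 had a window at the 5′ end, with β-values of 0.663% to 1.58% at POU5F1, 0 to 2.83% at LIN28A, 0.742% to 1.27% at DNMT3B and 37.2% to 60.9% at ZFP42, while NANOG, SOX2, DPPA4 and TDGF1 had none. Methylation does not measure the expression of these markers.

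The 5′ ends of the antioxidant response genes held little methylation in all 5 libraries. Each of the 8 genes with a window at its RefSeq 5′ end had a β-value between 0 and 3.61% in every library. Over all 80 tests of these windows between pairs of libraries, 0 had an adjusted p under 0.01, and the smallest was 0.0117 (Fisher's exact test, Benjamini-Hochberg adjusted). The TXNRD1 tests rested on 26 to 247 calls, and pairs with 0 methylated calls in both libraries could not differ. The share of such tests over all start windows was not counted. Among all windows under 10% in the vehicle control, 6.24% of comparisons of a chemical with it were under 0.01. The median of the 8 windows at the members' 5′ ends in the vehicle control was 1.58%. Over the 15283 windows that hold any RefSeq start it was 1.59%, and 71.2% of those were under 10%.

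Among the regulators, NFE2L2 had the lowest 5′ end of the 8 genes in the vehicle control (chr2:177264001-177265000, CpG island). Its β-value was 0.636% in the vehicle control, 0.769% with etoposide, 0.684% with propyl gallate, 0.753% with theophylline and 0.678% with 5-aza-dc, on 2470 to 4090 calls. The deposited table places the NFE2L2 start 128 kb farther upstream, in another island window (chr2:177392001-177393000) that was also unmethylated, from 0.483% in the vehicle control to 1.21% with theophylline. The window next to the RefSeq start, chr2:177263001-177264000, had 0.936% in the vehicle control and 0.116% with 5-aza-dc, a difference of -0.82 percentage points with an adjusted p of 0.00373 by Fisher's exact test. Over the 4 chemicals it gave the 1 adjusted p under 0.01 in 72 comparisons of the 18 member windows that were under 10% in the vehicle control (1.39%), beside 6.24% of such comparisons over all windows.

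KEAP1, the NRF2 repressor, had 3.34% in the vehicle control at its 5′ end (chr19:10503001-10504000), 3.28% with etoposide, 2.78% with propyl gallate, 3.61% with theophylline and 2.52% with 5-aza-dc. The next window into the gene, which holds most of the downstream promoter printed above, was lower still, at 0.534% to 0.992%. The unmethylated stretch of KEAP1 had sharp edges within the same island. The window just upstream (chr19:10504001-10505000) had 95.7% in the vehicle control and the one after the unmethylated pair (chr19:10501001-10502000) had 95.9%, and both stayed between 88.0% and 96.3% in all libraries.

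Of the targets, GCLM and GCLC encode the modifier and catalytic subunits of glutamate-cysteine ligase, the rate-limiting enzyme of glutathione synthesis. GCLM (chr1:93909001-93910000) had 0.760% in the vehicle control, 0.701% with etoposide, 0.955% with propyl gallate, 0.950% with theophylline and 0.777% with 5-aza-dc, on 4632 to 6972 calls. GCLC (chr6:53545001-53546000) had 1.55% in the vehicle control, 0.687% with etoposide, 0.863% with propyl gallate, 0.747% with theophylline and 0.333% with 5-aza-dc. The GCLC levels with the chemicals were all under that of the vehicle control, but the 5-aza-dc difference, with the smallest adjusted p of 0.0117 by Fisher's exact test, rested on 4 methylated calls of 1202 against 20 of 1292.

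NQO1, a quinone reductase, ranged from 1.49% with 5-aza-dc to 2.35% with propyl gallate (chr16:69726001-69727000). SRXN1, sulfiredoxin, which repairs overoxidized peroxiredoxins, ranged from 0.965% with 5-aza-dc to 2.19% with etoposide (chr20:653001-654000). HMOX1, heme oxygenase 1, lay outside any annotated CpG island and was still at 1.58% with propyl gallate to 3.57% with etoposide (chr22:35381001-35382000). None of the pairs of libraries passed the test at these 5′ ends.

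TXNRD1, thioredoxin reductase 1, had 4 methylated calls of 247 in the vehicle control (1.62%) at its upstream start (chr12:104215001-104216000). The other libraries had 0 of 42 with etoposide, 0 of 184 with propyl gallate, 0 of 26 with theophylline and 0 of 42 with 5-aza-dc, for which a limit of 3 calls of the total allows β-values of up to 7.14%, 1.63%, 11.5% and 7.14%. The upper ends of their 95% Wilson intervals, which are the bars drawn, were 8.38%, 2.05%, 12.9% and 8.38%. At the downstream start, in the island window chr12:104287001-104288000, coverage was deeper and β-values were 0.684%, 0.40%, 0.710%, 0.750% and 0.759% in the same order of libraries. This window holds only the end of the printed downstream promoter, and the core 102 bases before that start lies outside it.

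SLC7A11, the cystine transporter, and CAT, catalase, had no window that holds their 5′ end. The nearest CAT window, in a CpG island with its centre 0.567 kb into the gene (chr11:34439001-34440000), was methylated to an intermediate level. It had 52.5% in the vehicle control (95% Wilson interval 50.7% to 54.3%, 2879 calls), 54.9% with etoposide, 57.2% with propyl gallate, 53.2% with theophylline and 48.8% with 5-aza-dc. Propyl gallate was highest and 5-aza-dc lowest, with a difference of -8.48 points between them (adjusted p = 6.33e-08, Fisher's exact test). Against the vehicle control, propyl gallate was 4.72 points higher (adjusted p = 0.00532, exact test) and 5-aza-dc differed by -3.76 points (adjusted p = 0.0307), both under the 10 points needed for a call. The printed CAT promoter ends just before this window begins, so its 20 CG are not those measured.

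Most member windows were methylated, counting those at the 5′ ends. In the vehicle control 18 of the 110 windows (16.4%) were under 10%, 8 (7.27%) lay from 10% to under 70% and 84 (76.4%) were at 70% or more. Of all windows, 9.56%, 6.35% and 84.1% were in these ranges. The median member window was at 91.4%, against 91.0% over all windows. Of the 28 member windows in CpG islands, 15 (53.6%) were under 10%, beside 47.6% of all island windows. The SLC7A11 windows, in the 3′ untranslated region and upstream of the gene, stood at 91.6% to 92.5%.

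A window was called when Fisher's exact test between 2 libraries gave a Benjamini-Hochberg adjusted p under 0.01 over all 288391 windows and the β-values differed by at least 10 percentage points. The test compares 2 libraries, not 2 conditions, and it treats each call as independent, so its p-values can be too small. Of the 110 member windows, 8 (7.27%) were called with any of the chemicals against the vehicle control, beside 8.10% of all windows, so 102 were called with none. All 8 lay in windows that were methylated at 58.4% or more in the vehicle control. This follows in part from the rule, since a window under 10% cannot fall by 10 percentage points. Most member windows, 84 of the 110, were also at 70% or more.

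**Figure D1:**
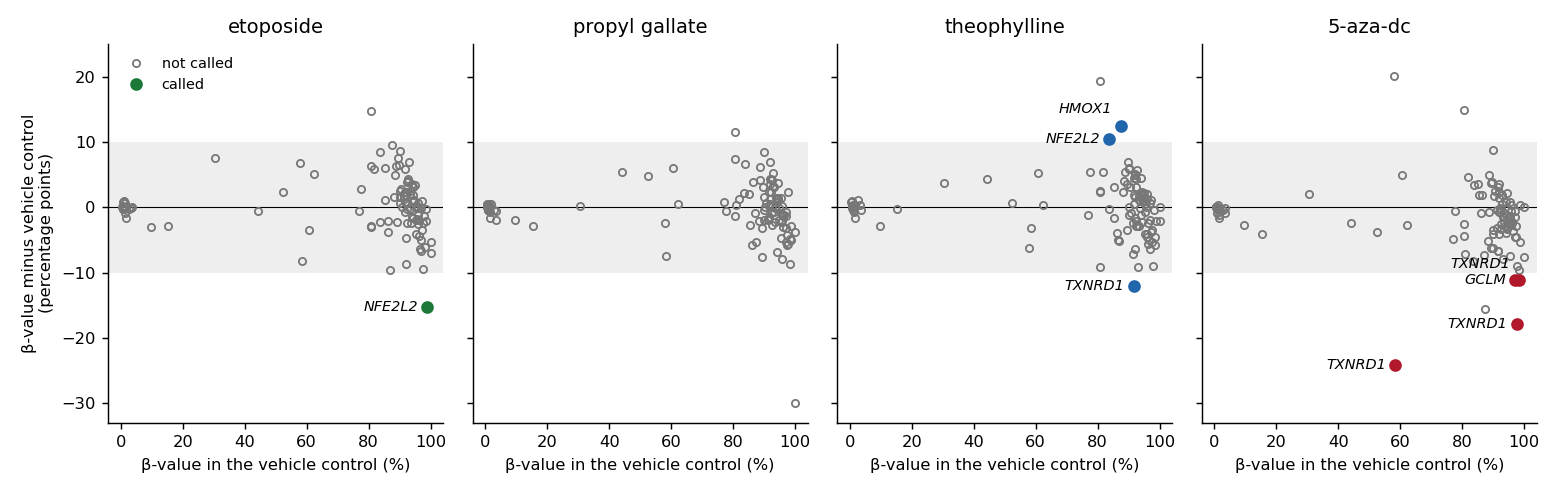
Difference in β-value from the vehicle control (percentage points) against the β-value in the vehicle control (percent) for the 110 member windows, 1 panel per chemical, with called windows filled and the range under 10 points shaded. Windows near 0 in the vehicle control stay near 0, and the 8 called windows are spread over NFE2L2, TXNRD1, HMOX1 and GCLM.

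With etoposide, 0 member windows were called higher and 1 lower, where 1.36% and 0.959% of all windows were called. The one lower was an NFE2L2 window 138 kb upstream of its RefSeq start (chr2:177402001-177403000, between genes). It had 98.8% in the vehicle control, 83.5% with etoposide, 96.0% with propyl gallate, 96.7% with theophylline and 93.5% with 5-aza-dc. Only the etoposide library was under 90%, and it fell by 15.3 points (adjusted p = 1.75e-05, Fisher's exact test). Counting the adjusted p alone, 9 member windows were higher and 4 lower, while 6.37% and 3.74% of all windows were. NFE2L2, which has 18 of the 110 member windows, held 3 of the 4 lower ones. Among member windows with at least 30 calls in both libraries and an adjusted p under 0.01, the largest rise was in NFE2L2 at chr2:177249001-177250000, from 90.0% to 98.6% (exact test, adjusted p = 0.00732).

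With propyl gallate, 0 member windows were called in either direction, where 1.34% of all windows were called higher and 0.880% lower. By the adjusted p alone, 6 were higher and 7 lower, beside 6.55% and 3.71% of all windows. Within the same limits on calls and adjusted p, the largest rise was in the NFE2L2 window at chr2:177249001-177250000, which had 98.4% with propyl gallate (8.40 points higher, exact test, adjusted p = 0.00452). The largest fall within these limits was in KEAP1 at chr19:10501001-10502000, at the inner edge of its unmethylated stretch. It had 95.9% in the vehicle control, 95.8% with etoposide, 88.0% with propyl gallate, 91.4% with theophylline and 96.3% with 5-aza-dc. The propyl gallate library fell by 7.95 points (adjusted p = 1.69e-05, Fisher's exact test) and was the lowest of the 5. NQO1, 1.06 kb into the gene (chr16:69725001-69726000) and next to its 5′ end window, had 88.5% in the vehicle control, 93.4% with etoposide, 94.6% with propyl gallate, 92.5% with theophylline and 87.7% with 5-aza-dc. Against the vehicle control the adjusted p was 3.71e-04 with propyl gallate and 0.00619 with etoposide by the exact test.

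With theophylline, 2 member windows were called higher and 1 lower, where 1.59% and 0.679% of all windows were called. The first was HMOX1, 15.4 kb downstream of the 5′ end and past the gene's end (chr22:35396001-35397000). It had 87.5% in the vehicle control, 97.0% with etoposide, 82.1% with propyl gallate, 100% with theophylline and 71.9% with 5-aza-dc. All 111 theophylline calls were methylated, 12.5 points above the vehicle control (exact test, adjusted p = 6.44e-04), and the 5-aza-dc library, with 64 calls, was lowest (adjusted p = 0.0436 against the vehicle control, not called). Another was an NFE2L2 window at chr2:177225001-177226000, to which the table gives the symbol of HNRNPA3. This window lies past the 3′ end of the RefSeq gene, and it is a member only through the longer deposited position of NFE2L2. It had 83.7% in the vehicle control, 92.2% with etoposide, 90.3% with propyl gallate, 94.1% with theophylline and 87.1% with 5-aza-dc. The vehicle control was the lowest of the 5, and theophylline was 10.4 points above it (exact test, adjusted p = 4.93e-09). The window called lower was in TXNRD1, 54.7 kb into the gene (chr12:104270001-104271000). This window carries the symbol of RPL18AP3 and lies before the downstream TXNRD1 start. It had 91.6% in the vehicle control, 97.4% with etoposide, 90.1% with propyl gallate, 79.5% with theophylline and 94.7% with 5-aza-dc. The theophylline library alone was under 90% (a difference of -12.1 points, adjusted p = 0.00506, Fisher's exact test). By the adjusted p alone, 8 member windows were higher and 10 lower, beside 8.13% and 2.86% of all windows. Of the 10 lower ones 6 were in TXNRD1, which has 41 of the 110 member windows.

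With 5-aza-dc, 0 member windows were called higher and 4 lower, where 0.879% and 2.76% of all windows were called. TXNRD1, which has 41 of the 110 member windows, held 3 of the 4 and GCLM the other. The GCLM window, 18.9 kb into the gene in an intron (chr1:93890001-93891000), had 97.0% in the vehicle control, 92.0% with etoposide, 93.9% with propyl gallate, 90.7% with theophylline and 85.8% with 5-aza-dc. The 5-aza-dc library was the lowest and fell by 11.2 points from the vehicle control, which was the highest (exact test, adjusted p = 0.00138). By the adjusted p alone, 3 member windows were higher and 13 lower, beside 3.55% and 10.4% of all windows. Within the limits on calls and adjusted p, the largest rise was in NFE2L2 at chr2:177249001-177250000, at 98.9%. The vehicle control, at 90.0%, was the lowest library in that window, and all comparisons with it share that value.

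**Figure D2:**
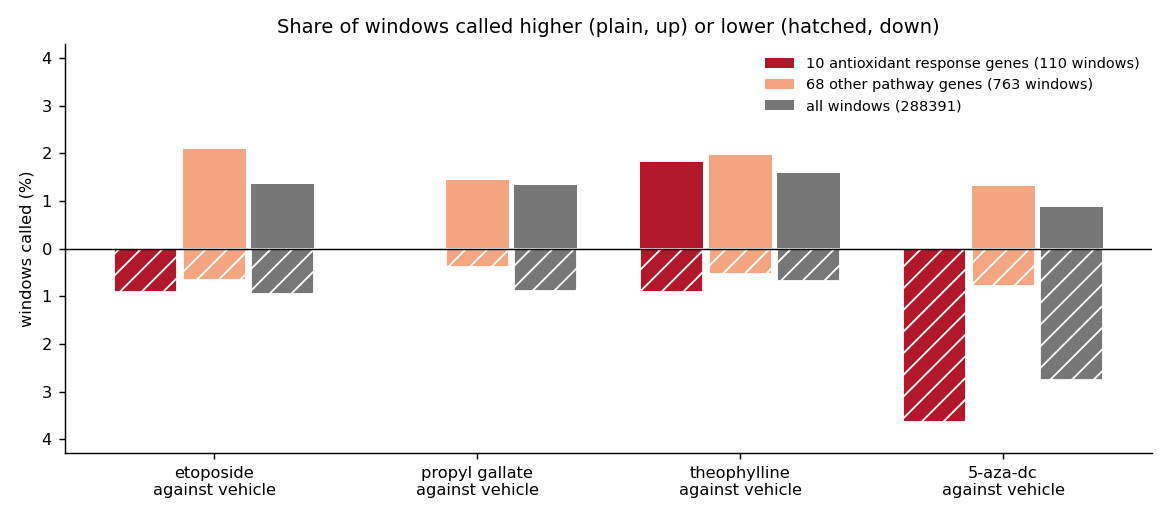
Percentage of windows called higher (plain bars) or lower (hatched bars, downwards) than the vehicle control with each chemical, for the 10 antioxidant response genes, for 68 other genes of the pathway and for all windows. With propyl gallate no member window was called, and with 5-aza-dc the 4 called member windows were all lower.

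TXNRD1, with 41 windows, gave the densest profile. Its β-values dropped to near 0 at the upstream start and in the window of the downstream start, centred 71.7 kb away, and 4 of its windows lay from 10% to under 70% in the vehicle control. The window just inside the upstream start (chr12:104216001-104217000) had 15.3% in the vehicle control, 12.4% with etoposide, 12.4% with propyl gallate, 15% with theophylline and 11.1% with 5-aza-dc, on 2450 to 3271 calls. The 5-aza-dc library was lowest and fell by 4.11 points from the vehicle control (exact test, adjusted p = 8.00e-05). A window 61.7 kb into the gene stood at 41.7% to 49.6% in the 5 libraries.

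Within TXNRD1 lies EID3, a gene that lends its symbol to the windows around its promoter. The EID3 shore window (chr12:104302001-104303000, 86.7 kb from the TXNRD1 5′ end) had 58.4% in the vehicle control, 50.1% with etoposide, 50.9% with propyl gallate, 55.3% with theophylline and 34.2% with 5-aza-dc. The Wilson interval of the 5-aza-dc library, 30.2% to 38.4%, lay under those of the other 4 libraries. This was the largest called change of any member window against the vehicle control, a difference of -24.2 points (adjusted p = 9.73e-11, Fisher's exact test). The next window, in the EID3 island (chr12:104303001-104304000), had 30.5% in the vehicle control and 32.5% with 5-aza-dc, and was highest with etoposide, at 38.0%. The island window after it had 80.9% in the vehicle control, 77.8% with etoposide, 81.2% with propyl gallate, 71.7% with theophylline and 73.7% with 5-aza-dc.

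The other TXNRD1 windows called with 5-aza-dc lay 58.7 and 60.7 kb into the gene, before its downstream start. They carry no gene symbol in the deposited annotation. The first (chr12:104274001-104275000) had 98.4% in the vehicle control, 98.1% with etoposide, 93.6% with propyl gallate, 92.7% with theophylline and 87.3% with 5-aza-dc, and fell by 11.1 points (exact test, adjusted p = 2.71e-09). The second (chr12:104276001-104277000) had 97.6%, 88.2%, 92.1%, 94.1% and 79.7% in the same order of libraries, on 51 to 84 calls (a difference of -17.9 points, exact test, adjusted p = 0.00330). By the adjusted p alone, 8 of the 41 TXNRD1 windows were lower with 5-aza-dc and 0 higher, beside 10.4% and 3.55% of all windows.

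**Figure D3:**
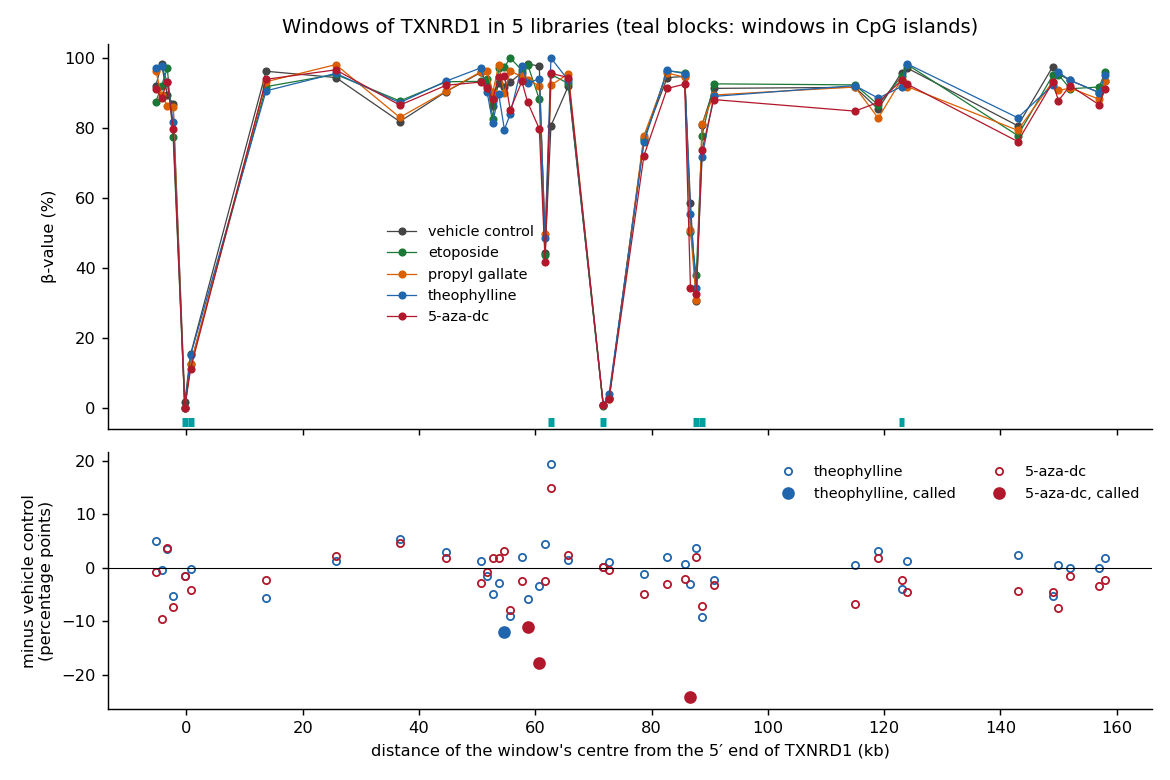
Above, β-value (percent) of the 41 TXNRD1 windows in the 5 libraries against distance from the 5′ end (kb), with teal blocks for windows in CpG islands. Below, the difference from the vehicle control (percentage points) with theophylline and 5-aza-dc, called windows filled. Methylation drops to near 0 at the 2 starts in every library, and the called falls lie from 54.7 to 86.7 kb.

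Averaged over the 110 member windows, methylation stood at 74.0% in the vehicle control, 74.2% with etoposide, 73.5% with propyl gallate, 74.0% with theophylline and 72.2% with 5-aza-dc. The mean differences from the vehicle control were 0.20 percentage points with etoposide (95% counting interval -0.315 to 0.715), -0.428 with propyl gallate (-0.995 to 0.139) and 0.0115 with theophylline (-0.477 to 0.500). The 3 intervals include 0, while the means over all windows were 0.502, 0.548 and 0.963 points higher. With 5-aza-dc the members fell by 1.79 points (interval -2.32 to -1.25), beside -1.05 points over all windows. The medians over the members were -0.01, -0.26, 0.09 and -1.29 points, beside 0.33, 0.35, 0.69 and -0.65 over all windows. These intervals carry no spread between cultures, so they do not test a condition.

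Over the 92 member windows of at least 10% in the vehicle control the mean went from 88.1% to 86.0% with 5-aza-dc, a difference of -2.05 points beside -1.15 over all windows of that range. Over the 18 under 10%, which have little room to fall, it went from 1.88% to 1.44%, a difference of -0.44 points beside -0.14. The medians over these low windows were close, at -0.134 points beside -0.123. The 5-aza-dc library alone was lowest in 44 of the 110 windows (40.0%, beside 35.1% of all windows) and alone highest in 7 (6.36%, beside 12.3%).

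**Figure D4:**
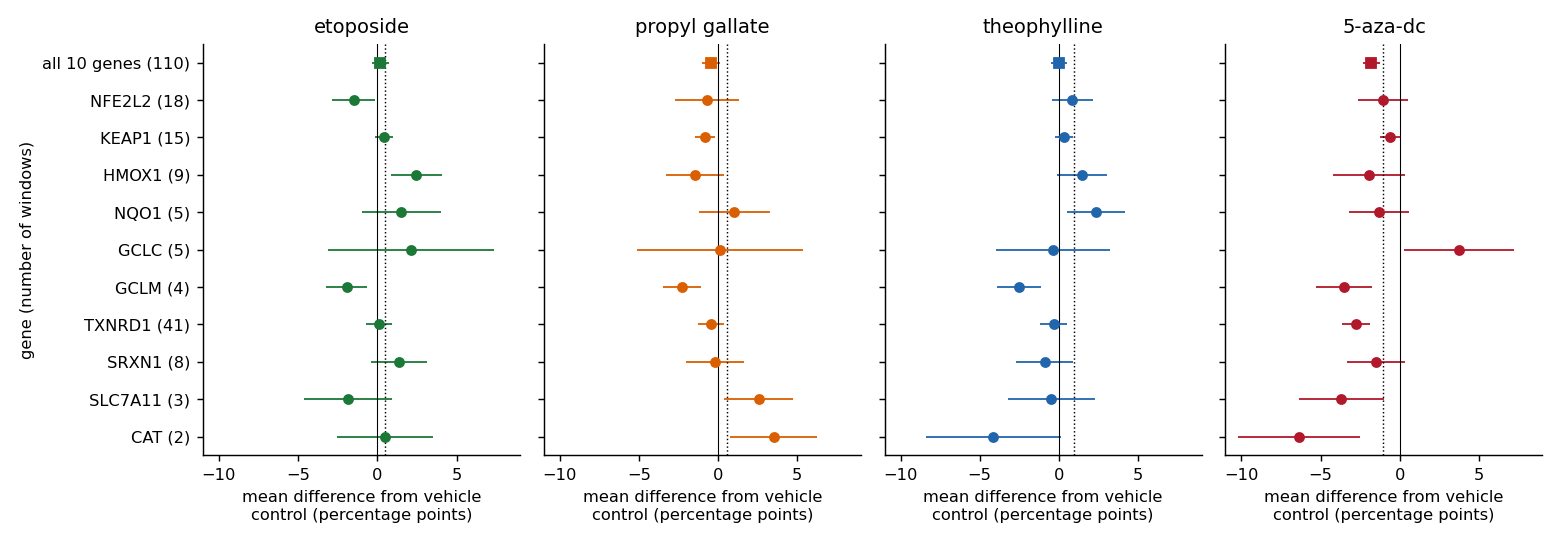
Mean difference in β-value from the vehicle control (percentage points) over the windows of each gene, with bars for the 95% counting interval, 1 panel per chemical; the dotted line is the mean over all windows. With 5-aza-dc 9 of the 10 gene means are under 0, and GCLC, with 5 windows, is the exception.

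By gene, the mean difference with 5-aza-dc ranged from -6.35 points in CAT, on 2 windows, to 3.74 points in GCLC, on 5 windows (interval 0.252 to 7.23). The GCLC mean rested on a shore window (chr6:53542001-53543000) with 44 of 76 calls methylated in the vehicle control and 39 of 50 with 5-aza-dc, which was not called. TXNRD1 fell by 2.76 points (interval -3.66 to -1.85). GCLM fell by 3.52 points, and SLC7A11 fell by 3.70 points. The SLC7A11 window upstream of the gene (chr4:138252001-138253000) had 91.6% in the vehicle control, 90.9% with etoposide, 94.0% with propyl gallate, 93.4% with theophylline and 84.9% with 5-aza-dc (exact test, adjusted p = 3.98e-04 for 5-aza-dc against the vehicle control). GCLM was lower than the vehicle control with every chemical, with differences of -1.94 points with etoposide, -2.30 with propyl gallate, -2.50 with theophylline and -3.52 with 5-aza-dc, and all 4 share the vehicle control library. HMOX1 was 2.47 points higher with etoposide (interval 0.840 to 4.10).

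Between pairs of chemicals, 0.909% to 3.64% of the 110 member windows were called, and the share over all windows is given in brackets or beside each count. With propyl gallate against etoposide, 1 member window was called, where 2.26% of all windows were, and 2 with theophylline against etoposide (2.29%). With 5-aza-dc, 3 were called against etoposide (4.22%), 1 against propyl gallate (4.17%) and 4 against theophylline (4.57%), and with theophylline against propyl gallate 1 was (2.16%). The EID3 shore window in TXNRD1 was called in all 3 pairs of 5-aza-dc with another chemical. The HMOX1 window past the gene's end was called in 3 of the 6 pairs, the widest being 100% with theophylline against 71.9% with 5-aza-dc (exact test, adjusted p = 1.20e-07). An NFE2L2 window 202 kb upstream (chr2:177466001-177467000) had 96.0% with theophylline and 83.8% with 5-aza-dc (exact test, adjusted p = 8.94e-12), with the vehicle control between them at 90.1%.

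The longer list held 68 other genes of the pathway with 763 windows: NRF2 partners and regulators, and genes of glutathione, thioredoxin, iron, NADPH and conjugation. With etoposide, 16 of its windows were called higher and 5 lower, with propyl gallate 11 and 3, with theophylline 15 and 4 and with 5-aza-dc 10 and 6. Together these were 2.75%, 1.83%, 2.49% and 2.10% of the 763 windows, beside 2.32%, 2.22%, 2.27% and 3.64% of all windows. SESN1, a stress-induced sestrin, had an island window (chr6:109046001-109047000) at 59.3% in the vehicle control, 93.3% with etoposide, 86.7% with propyl gallate, 88.5% with theophylline and 83.5% with 5-aza-dc, so the vehicle control stood apart. It was the largest called rise with at least 30 calls with etoposide (exact test, adjusted p = 6.76e-07) and with theophylline (adjusted p = 1.59e-04). Within the same limits, the largest rise with 5-aza-dc was in TKT, transketolase, from 67.7% to 97.9%. That window had 94.5% with etoposide, 100% with propyl gallate and 88.1% with theophylline, so the vehicle control was the lowest library. The largest fall with 5-aza-dc was in GLRX, glutaredoxin, from 92.9% to 63.3%. The other largest falls were in RBX1, MAFG and NQO2. RBX1, a subunit of the KEAP1 ubiquitin ligase, went from 95% on 139 calls to 68.3% with etoposide, on only 41 calls. MAFG, a small MAF partner of NRF2, went from 100% to 74.6% with propyl gallate, and NQO2 from 83.8% to 63.3% with theophylline.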

How the data were processed

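DNA methylation was measured by RRBS in 5 libraries, 1 per condition. The authors trimmed reads with Trim Galore (0.5.0), aligned them with Bismark (0.20.0) to hg38, per the submitters' processing notes, used methylKit (1.10.0) to add up CpG calls in windows of 1000 bases, scaled coverage, removed windows under 10 calls or above the 99.9th percentile and merged the libraries. The deposited counts of the vehicle control were unscaled. The deposited values of the chemicals' libraries were treated as a score, because the authors had scaled them by 1.18 (etoposide), 1.09 (propyl gallate), 1.15 (theophylline) or 1.21 (5-aza-dc) and rounded. The deposited β-value is a fraction of the scaled calls. The table also holds gene and CpG-island annotation.

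Calls were divided by these factors and rounded to whole calls. Scaled again, they gave the coverage as deposited in 99.95% of windows or more. Gene positions in the table lay within 1000 bases of RefSeq GRCh38.p14 for 97.4% of 32669 symbols, and 5′ ends were taken from RefSeq. Fisher's exact test, two-sided, was run on all 288391 windows for each of the 10 pairs of libraries with Benjamini-Hochberg adjustment (Python 3.11.15, scipy 1.17.1, numba 0.67.0). It was checked on simulated data, in which 200 windows differed. The counting interval of a mean came from the binomial variance of each window. All per-sample columns were used.

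The members, lists and tests were chosen with earlier results of these data known. Windows named are those at the members' 5′ ends, those called against the vehicle control, and per chemical the largest rise and fall with at least 30 calls and an adjusted p under 0.01. Of the other pathway genes, the called windows with the largest rise and fall per chemical are named, except 1 that is not reported here. Windows of CAT, SLC7A11, NQO1 and GCLC, those next to the 5′ ends of NFE2L2, KEAP1 and TXNRD1, the other TXNRD1 start, the windows beside EID3 and those called between chemicals are further windows, named once their values had been seen. The alternatives changed the thresholds, the calls, the choice of windows and the averaging.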

Additional observations from a re-analysis of the deposited data

How the results depend on the processing

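The member windows called with etoposide, propyl gallate, theophylline and 5-aza-dc numbered 1, 0, 3 and 4. By the adjusted p alone they numbered 13, 13, 18 and 16. With a difference of at least 25 percentage points 0 were called in each comparison. With all calls divided by 2 the counts were 0, 0, 1 and 2. Among windows chosen by gene symbol alone they were 1, 0, 1 and 1, and by overlap alone 0, 0, 2 and 4. The deposited calls, at least 30 calls, and leaving out GCLC gave the same counts in all 4 comparisons. The last of these was chosen after seeing the data. For the other pathway genes the counts of 21, 14, 19 and 16 became 84, 76, 78 and 84 by the adjusted p alone, 3, 5, 2 and 3 with 25 points, and 3, 4, 3 and 5 with calls divided by 2. By gene symbol alone they were 9 with propyl gallate, 11 with theophylline and 9 with 5-aza-dc, and by overlap alone 11 with etoposide.

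The mean difference over member windows with 5-aza-dc stayed under 0 in all 10 alternatives, from -2.36 (by gene symbol) to -1.16 points (by overlap), and was -1.22 without TXNRD1, an alternative chosen after seeing the data. With etoposide it was -0.583 by gene symbol, 0.766 by overlap, 2.70 with all calls pooled and 0.751 against the mean of the other libraries. With propyl gallate it was -1.56 by gene symbol, 0.304 by overlap, 0.570 with calls pooled and 0.125 as the mean over genes. With theophylline it was 2.11 with calls pooled, 0.516 against the other libraries, -0.405 by gene symbol, -0.0515 by overlap and -0.386 as the mean over genes. The sign with these 3 chemicals thus changed with the choice of windows or the averaging, and the median over windows with etoposide was -0.0138. The cause was not tested. Averaging the 20 windows within 1500 bases of the 5′ ends gave 26.9%, 27.2%, 26.4%, 26.6% and 26.4% in the vehicle control, etoposide, propyl gallate, theophylline and 5-aza-dc libraries, against 1.81%, 1.63%, 1.36%, 1.60% and 1.28% for the 8 windows that hold them. The wider choice takes in methylated flanks such as those of KEAP1.

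No paired analysis was possible because each condition had 1 library, and there was no replicate to leave out. Depth limits the windows with few calls, such as the upstream TXNRD1 start.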
